A study of Mus musculus with 8 samples.

Results

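The polyadenylated mRNAs of 7 histone variant genes (H2afz, H2afv, H2afx, H2afy, H3f3a, H3f3b and H1f0) were followed read by read in mouse P19 cells. Reads were taken where the tail estimate carried the tag PASS and the transcript was an mRNA, and each read was counted 1 time per transcript. All 7 genes passed the minimum of 30 reads in total. They gave 11477 of 1926118 mRNA reads (0.596%) and are 7 of 13120 genes with reads. The deposited table lists 4 of the genes under newer symbols (H2az1 for H2afz, H2az2 for H2afv, H2ax for H2afx and Macroh2a1 for H2afy), and these were found by their transcript identifiers. The table's symbols alone would have found 3 of the genes, with 6093 reads.

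P19 is a line of wild-type mouse embryonal carcinoma cells, kept undifferentiated here. The cells were exposed to 10 µM MHY1485 (MHY), an activator of the mTOR kinase pathway, or to the same amount of its solvent DMSO, for 24 h or 48 h. Each of the 4 groups had 2 replicates, which gave 8 libraries of 178369 to 316546 mRNA reads. RNA was captured on oligo(dT) beads and sequenced directly on nanopores, so that 1 read is 1 RNA molecule with its tail, and RNA without a tail was not sampled. Levels are given in RPM, the reads of a gene scaled to 1000000 mRNA reads of its library, which can be compared between genes because a molecule gives 1 read whatever its length. Libraries keep the numbers of the deposited table (21 and 23 at 24 h, 24 and 25 at 48 h), which are names and not hours.

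Histone variants replace the common histones in parts of the genome and can be made throughout the cell cycle, whereas the common histones are made in S phase from clustered genes whose mRNAs end in a stem-loop and carry no poly(A) tail. Variant mRNAs mostly come from genes with introns and end in a poly(A) tail like other mRNAs. H2A.Z marks promoters and regulatory regions, H3.3 is deposited at active genes and at some silent repeats, H2A.X is phosphorylated around DNA breaks, macroH2A is found in silent chromatin, and H1.0 is a linker histone that accumulates in non-dividing and differentiating cells.

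Most of the embryonal carcinoma markers looked for were present. Pou5f1, the pluripotency factor OCT4, lay between 2375 and 2907 RPM in the 8 libraries, and 9 of 12 such markers had at least 30 reads. Of the 8 that were tested, 1 fell in MHY at 48 h, namely Tdgf1, which encodes a co-receptor of Nodal, with 285.5 and 331.7 RPM in DMSO and 147.6 and 200.9 in MHY (limma, log2 fold change -0.997, SE 0.21, adjusted p = 0.000679), where 1.72% of all genes passed. The summed level of 11 neuronal markers was 270.9 to 448.5 RPM, with most of it from Stmn2. That of 10 fibroblast and endoderm markers was 188.4 to 715.8 RPM, nearly all from Vim (vimentin), while the endoderm factors Gata4 and Gata6 had 1 and 3 reads. Vim was higher in MHY than in DMSO at 48 h, with 187.2 and 243.3 RPM in DMSO against 702.9 and 327 in MHY (limma, log2 fold change 1.07, SE 0.19, adjusted p = 1.0e-05), and the part of Tdgf1 and Vim in the results below was not tested. Replicates of a group differed by more than counting noise, since the chi-square of gene counts divided by its degrees of freedom was 1.12 to 1.41.

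The 7 mRNAs spanned a wide range of levels. H2afz, which encodes the main H2A.Z protein, was the most abundant with 4286 reads. It had 2481 and 2411 RPM in the DMSO libraries of 24 h and 2262 and 2114 in the MHY libraries. At 48 h the values were 2256 and 2196 in DMSO and 1942 and 2237 in MHY. The MHY libraries of 24 h were both lower than their DMSO controls, and at 48 h the groups overlapped. H2afv, which encodes the closely related H2A.Z.2, had 687 reads and 270.9 to 391.2 RPM over the 8 libraries. H2afz made up 84.0% to 89.2% of the reads of the H2A.Z pair in every library.

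H3f3a and H3f3b encode the same H3.3 protein from different chromosomes, and their levels were close to each other. H3f3a had 3190 reads, with 1691 and 1635 RPM in DMSO and 1609 and 1721 in MHY at 24 h. At 48 h it had 1713 and 1706 in DMSO and 1634 and 1551 in MHY, so that the lowest DMSO value exceeded the highest MHY value. H3f3b had 2649 reads, placed on the transcripts ENSMUST00000106454 (1351) and ENSMUST00000016703 (1294). The median mapping quality was 0 on both, so this split cannot be read as the use of each transcript. The gene had 1298 and 1283 RPM in DMSO and 1462 and 1233 in MHY at 24 h. At 48 h it had 1343 and 1444 in DMSO and 1499 and 1341 in MHY, with overlap of the groups at both times. H3f3a gave 52.2% to 58.3% of the H3.3 reads, and the summed level of the pair was 2891 to 3150 RPM.

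The other genes were less abundant. H2afx, the gene of the DNA damage histone H2A.X, had 341 reads and 147.6 to 217.8 RPM. H1f0, the gene of the linker histone H1.0, had 254 reads. It had 115.2 and 123.3 RPM in DMSO and 151.1 and 140.2 in MHY at 24 h, and 107.6 and 195.9 in DMSO against 102.7 and 102.8 in MHY at 48 h. The 195.9 of DMSO library 25 was the highest of the 8 values and 1.91 times the lowest. H2afy, the gene of macroH2A1, had 70 reads and 25.7 to 47.1 RPM, from 6 to 14 reads per library. Among all genes with reads, H2afz was in place 98, H3f3a in place 117, H3f3b in place 126 and H2afy in place 3416.

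**Figure D1:**
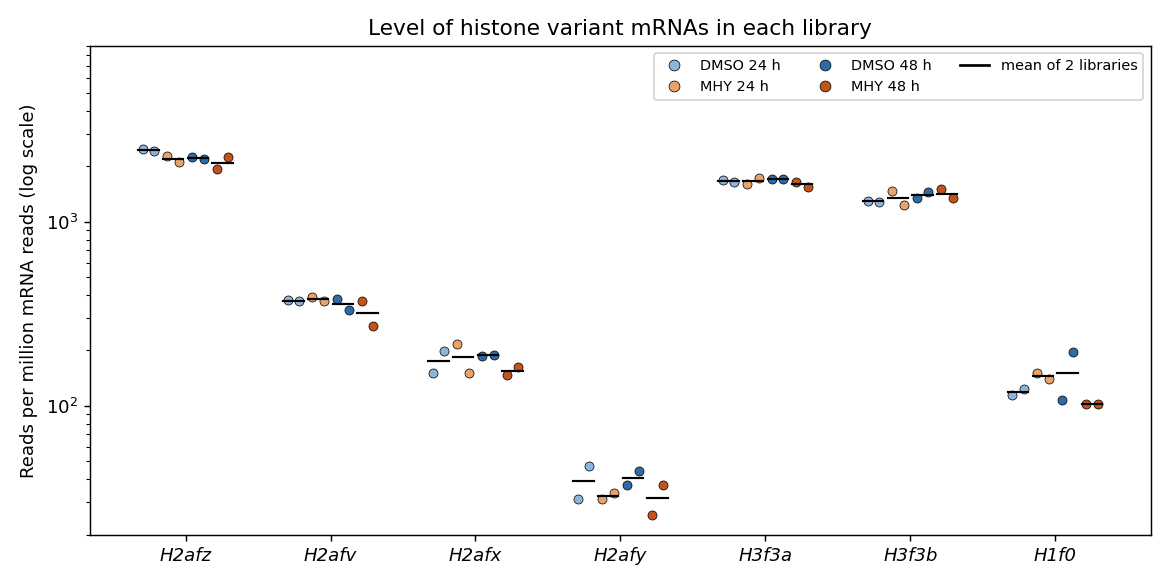
Levels in RPM (log scale) of the 7 histone genes in each of 8 libraries, with 1 dot per library, colours for the 4 groups and a bar at the mean of 2 libraries. H2afz, H3f3a and H3f3b lie between 1233 and 2481 in every library, and H2afy lies between 25.7 and 47.1.

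Most reads reached the coding region. The share of reads that began at or before the start codon was 92.9% for H2afv, 89.8% for H2afz, 88.5% for H3f3a and 85.1% for H3f3b. It was 63.9% for H2afx, 60.6% for H1f0 and 60% for H2afy.

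The places where the reads ended, just before the tail, fell into 15 poly(A) sites (ends within 12 nt of a common position, with at least 30 reads and 5% of the gene's reads). These held 11095 of the 11477 reads (96.7%), and all 15 lay in the 3′ UTR past the stop codon. H2afx and H2afy used 1 site each, and the other 5 genes used 2 to 4. Of the 15 sites, 7 were at an annotated transcript end. Reads were aligned to annotated transcripts, so ends past the last annotated base could not be seen. This touches the sites at the last base of their transcript, which are the farther sites of H2afz, H2afv and H1f0 and the site of H2afx. The site of H2afy lay 3 nt before the last base of its main transcript, so it is limited in nearly the same way.

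The sequences of 30 bases that end at the most common last base are shown for selected sites, because they carry the signal by which the cleavage machinery chooses the site. Capitals mark the poly(A) signal AATAAA or its common variant ATTAAA. Coordinates are those of mm10, and sequences are from the GENCODE vM21 transcripts, read on the gene's strand. H2afz (plus strand) ended 377 nt past the stop codon in 3466 reads (80.9%; chr3:137866795-137866824), and 684 reads (16.0%) ended at a site farther on.
H2afz nearer site: taagctcAATAAAggtcatatcccaaacta

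H3f3a (minus strand) ended 303 nt past the stop codon in 289 reads (9.06%; chr1:180802774-180802803), 356 nt past it in 339 reads (10.6%; chr1:180802721-180802750) and 512 nt past it in 2490 reads (78.1%; chr1:180802565-180802594). None of the 3 lay within 12 nt of an annotated transcript end. The main, farthest site holds ATTAAA at 2 places, and the middle site holds neither signal.
H3f3a nearest site: ttataAATAAAcctgttaaaattttctgga
H3f3a middle site: taaaataagtaaatttcttattgacggcaa
H3f3a farthest site: aagtttgctATTAAAatacATTAAActata

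H3f3b (minus strand) had the most even use of sites. It ended 45 nt past the stop codon in 205 reads (7.74%; chr11:116023362-116023391), at 349 nt in 931 reads (35.1%; chr11:116023058-116023087), at 551 nt in 502 reads (18.95%; chr11:116022856-116022885) and at 1116 nt in 865 reads (32.7%; chr11:116022291-116022320). The shortest and longest forms therefore differ by more than a kilobase of 3′ UTR. The site nearest to the stop codon is the one without AATAAA or ATTAAA.
H3f3b site at 45 nt: atggcattttgtagtaaattctgtaaaata
H3f3b site at 349 nt: ccttttgcAATAAAactggttatgacttga
H3f3b site at 551 nt: aacatttttaaATTAAAtgttttacattca
H3f3b site at 1116 nt: ctaaatttacaAATAAActtgtttattcaa

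H1f0 (plus strand) ended 130 nt past the stop codon in 71 reads (28.0%; chr15:79029407-79029436) and 1198 nt past it in 175 reads (68.9%; chr15:79030475-79030504), and both windows hold a signal. The last 10 bases of the farther window hold 8 A, so the exact last base cannot be told from the tail there.
H1f0 nearer site: tATTAAAgaggacagagtttggatccctca
H1f0 farther site: aactttaaAATAAAactggaaaggaaaaaa

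H2afv (minus strand) ended 233 nt past the stop codon in 638 reads (92.9%) and 1142 nt past it in 36 reads (5.24%). H2afy ended 605 nt past its stop codon in all 70 reads. In all, 10 of the 15 windows held AATAAA (6) or ATTAAA (4) on the gene's strand. The most common ends of 6221 transcripts with at least 30 reads held one or the other in 81.7% (AATAAA in 66.7% and ATTAAA in 17.2%). That share counts only the main end of a transcript, whereas the 15 windows include minor sites. Among the main sites, those of H2afz, H3f3a, H3f3b and H1f0 held one or the other. The 5 windows without either were the main sites of H2afv, H2afx and H2afy, the middle site of H3f3a and the site of H3f3b at 45 nt.

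Among the 7 genes, H2afx is the one whose mRNA is known both in a form that ends at a histone stem-loop and in a form that carries a poly(A) tail. The stem-loop lies at chr9:44335240-44335255 (plus strand) and begins 47 nt past the stop codon, and it is shown in capitals with its flanks.
H2afx stem-loop: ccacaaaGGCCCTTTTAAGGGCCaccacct

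Of 341 H2afx reads, 340 (99.7%) ended more than 30 nt past the stem-loop, 277 (81.2%) began before it, and 0 ended inside it or within 30 nt after it. The main end lay 884 nt past the stop codon, with 334 reads. The motif was found in 1 of 14 transcripts of the 7 genes and in 7 of the 6221 transcripts above (0.1125%), searched on the sense strand. The sample was selected for tails, so a form that ends at the stem-loop without a tail would not be seen.

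**Figure D2:**
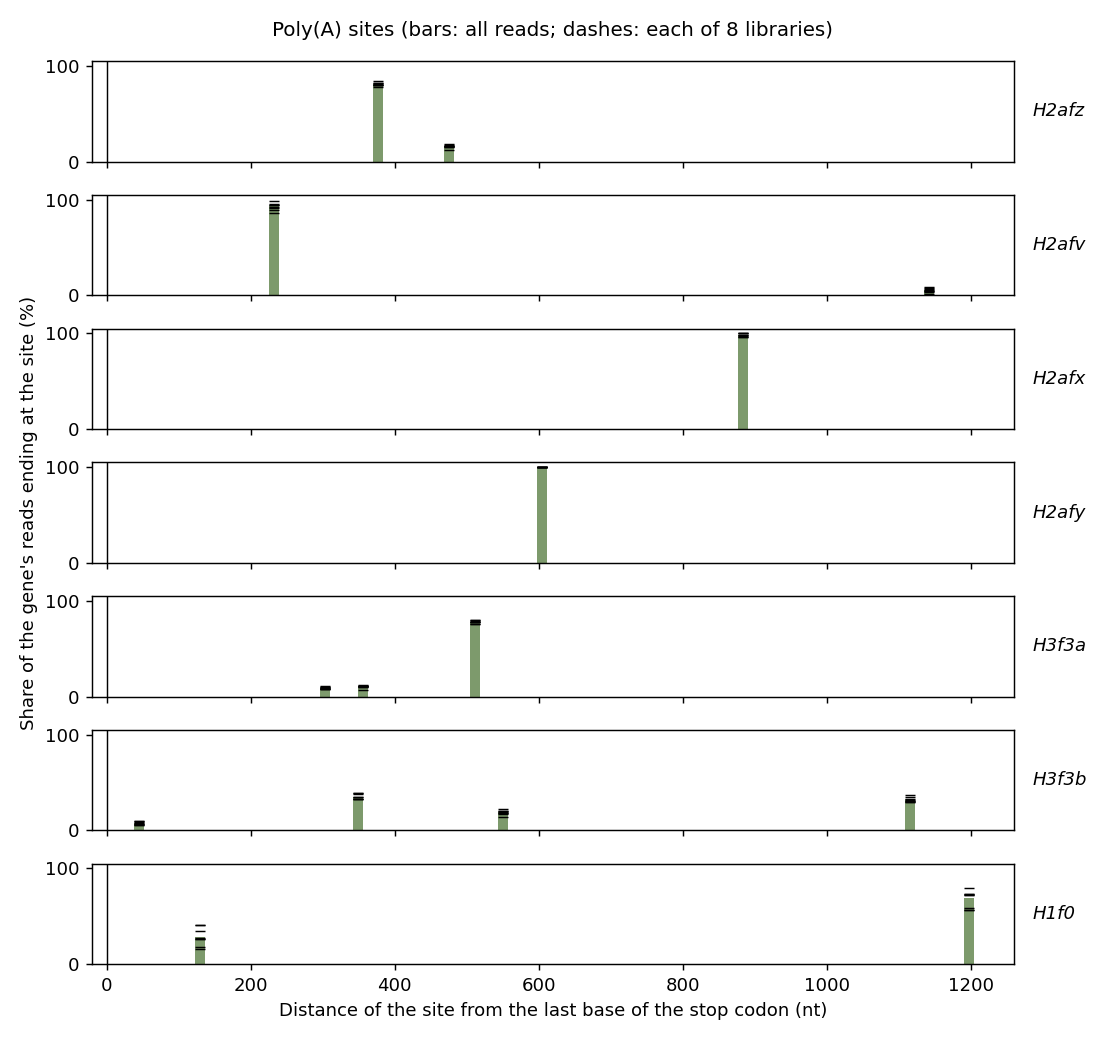
Share of each gene's reads that ended at each poly(A) site, against the distance of the site from the last base of the stop codon in nt. Bars give all reads and dashes each of 8 libraries; H3f3b spreads over 4 sites, while H2afx and H2afy have 1 each.

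The use of sites could be tested only weakly with so few libraries. The share of H2afz reads at the nearer site was 84.4% and 82.6% in DMSO and 81.7% and 80.6% in MHY at 24 h, and 80.1% and 80% in DMSO and 78.0% and 79.96% in MHY at 48 h. The 4 libraries of 48 h all lay below the 4 of 24 h, with a mean of 79.5% ± 1.00 (SD, n = 4) against 82.3% ± 1.58. The difference had the smallest p that 4 against 4 libraries allow (two-sided exact permutation test, p = 0.0286, adjusted p = 0.186 over 13 sites). Each run held 1 time point only, so time and run cannot be told apart. H1f0 used its nearer site in 21.8% ± 5.85 of reads at 24 h and 35.5% ± 7.07 at 48 h (n = 4 each, exact permutation p = 0.0857, adjusted p = 0.223). Between MHY and DMSO, 2 against 2 libraries can give no p below 0.333 (exact permutation test), so that no site could pass. Both MHY libraries lay beyond both DMSO libraries in 7 of 13 sites at 24 h and 5 at 48 h. The share over the sites of other genes was not computed, so no result is drawn from these counts. The MHY and DMSO shares of H3f3b at 349 nt were 37.2% ± 2.61 and 32.7% ± 0.506 at 48 h, and 35.6% ± 4.32 and 36.7% ± 2.32 at 24 h (n = 2 each).

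Tails of the histone variant mRNAs lay around the median of all mRNA reads, which was 92.4 to 102.5 nt by library. Over all reads the median was 96.0 nt for H2afz, 98.3 for H2afv, 102.8 for H3f3a, 103.4 for H3f3b, 103.5 for H2afx, 112.6 for H1f0 and 116.8 for H2afy. Tails shorter than 30 nt made up 2.04% (H3f3a) to 3.96% (H3f3b) of the reads, and tails of 30 to 90 nt 27.1% (H2afy) to 41.9% (H2afz). The longest 5% of tails began at 194.3 nt in H2afx and 263.6 nt in H2afy.

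By library, the median tail of H2afz was 100.8 and 99.9 nt in DMSO and 98.7 and 104.0 nt in MHY at 24 h. At 48 h it was 92.0 and 94.4 nt in DMSO and 88.3 and 96.2 nt in MHY. All 4 libraries of 48 h lay below all 4 of 24 h, and MHY and DMSO overlapped at both times. The medians of all mRNA reads separated by time in the same way, with 100.1 to 102.5 nt at 24 h and 92.4 to 99.3 nt at 48 h. H3f3b was also lower in all libraries of 48 h, with 107.1 and 106.8 nt in DMSO and 110.0 and 112.0 nt in MHY at 24 h, then 98.2 and 102.6 nt in DMSO and 98.2 and 95.6 nt in MHY at 48 h, and MHY was above DMSO at 24 h and overlapped it at 48 h. H3f3a had 109.0 and 102.0 nt in DMSO and 107.8 and 103.4 nt in MHY at 24 h. At 48 h it had 102.1 and 103.9 nt in DMSO and 98.6 and 93.9 nt in MHY, so that both MHY libraries of 48 h were the lowest of its 8.

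The rarer mRNAs varied more between replicates. H2afv had 92.4 and 112.4 nt in DMSO and 93.6 and 112.7 nt in MHY at 24 h, and 83.1 and 109.7 nt in DMSO and 89.2 and 98.9 nt in MHY at 48 h. In both treatments at each time the higher value belonged to the same library number (23 or 25). H2afx ranged from 78.1 nt in MHY library 24 to 116.4 nt in DMSO library 23. H1f0 had 122.9 and 129.4 nt in DMSO against 80.9 and 112.8 nt in MHY at 24 h, and 124.9 and 120.1 nt in DMSO against 103.3 and 104.5 nt in MHY at 48 h, with MHY below DMSO at both times and 22 to 62 reads behind each value. H2afy, with 6 to 14 reads per library, ranged from 93.9 to 143.4 nt and was left out of the tests of tails.

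**Figure D3:**
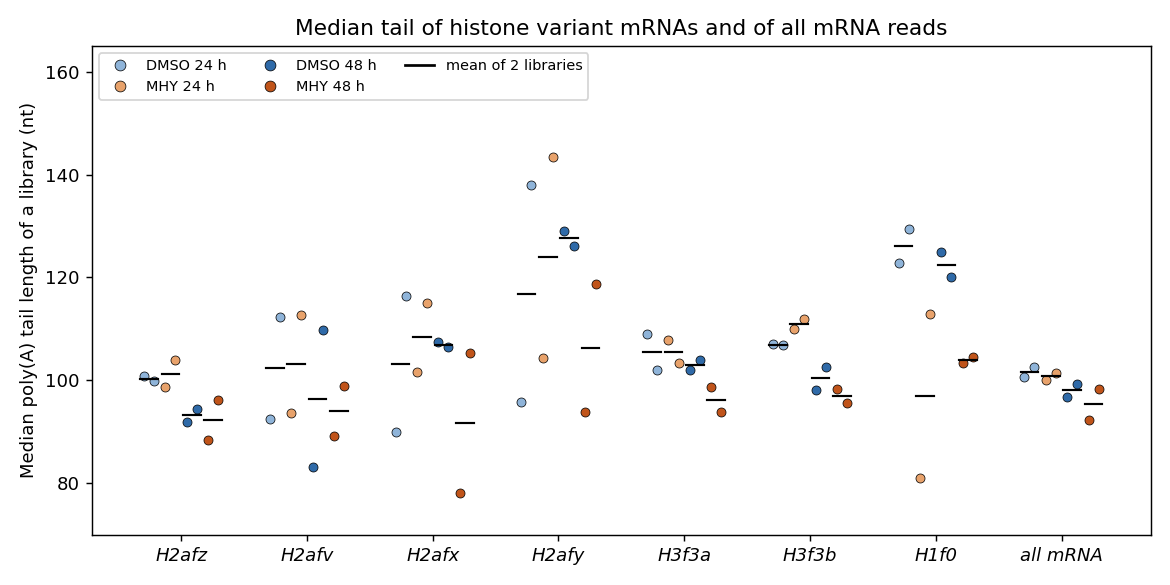
Median poly(A) tail length in nt of the 7 histone genes and of all mRNA reads, with 1 dot per library, colours for the 4 groups and a bar at the mean of 2 libraries. In H2afz, H3f3b and all mRNA reads the 4 libraries of 48 h lie below the 4 of 24 h, while H2afv, H2afx and H2afy spread widely between replicates.

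Differences between the members did not pass the test once the number of pairs was counted. The smallest p that 8 libraries allow is 0.00781 (exact sign-flip test), so a single pair could not pass when adjusted over 15 pairs. With the 8 libraries as units, 0 of 15 pairs of the 6 genes with at least 10 reads in every library passed (two-sided exact sign-flip test, lowest adjusted p = 0.205), and 3 pairs had an unadjusted p under 0.05. H2afz minus H3f3b was -7.02 nt ± 3.57 (SD, n = 8, exact p = 0.0156), with H2afz the longer in 1 of 8 libraries. H2afz minus H3f3a was -5.82 nt ± 5.22 (exact p = 0.0469) and H2afz minus H1f0 was -15.6 nt ± 16.3 (exact p = 0.0469). H3f3a and H3f3b, the genes of 1 protein, differed by -1.20 nt ± 4.05 (exact p = 0.453), with a range of -8.59 to 3.995 nt over the libraries.

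Against the median of all mRNA reads of the same library, 0 of 6 genes passed (exact sign-flip test, adjusted p from 0.105). H3f3b was 4.88 nt ± 4.35 longer (SD, n = 8, exact p = 0.0234), in 7 of 8 libraries, and was the 1 gene with an unadjusted p under 0.05. H2afz was -2.14 nt ± 2.56 from it and H1f0 13.4 nt ± 15.4, each with an adjusted p of 0.105. Among 1949 genes with at least 10 reads in every library, 37.1% had shorter tails than H2afz, 61.5% than H3f3b and 84.1% than H1f0.

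Within H3f3b, the site of polyadenylation went with tail length. Molecules that ended 349 nt past the stop codon had the longest tails, with medians of 102.8 to 119.3 nt over the libraries. They were longer than those that ended at 1116 nt in 8 of 8 libraries, which had 83.2 to 115.3 nt, with a difference (1116 nt minus 349 nt) of -8.53 nt ± 6.38 (SD, n = 8, exact sign-flip p = 0.00781, adjusted p = 0.0391 over 10 pairs of sites). The site at 551 nt differed from that at 349 nt by -9.82 nt ± 8.32 and the site at 349 nt from that at 45 nt by 15.8 nt ± 11.3, each with an adjusted p of 0.0391 (exact sign-flip test). In H3f3a, molecules that ended at the farthest site, 512 nt, had shorter tails than those that ended at 356 nt, by -9.23 nt ± 6.05 (n = 8, exact p = 0.0156, adjusted p = 0.0391), the latter being longer in 7 of 8 libraries. The other 6 pairs did not pass, among them both sites of H2afz with -6.86 nt ± 11.5 (exact p = 0.141, adjusted p = 0.260). This comparison was chosen after the data had been seen. With ends within 20 nt taken as 1 site, these 4 differences were, in the same order, -7.76, -8.83, 13.9 and -9.08 nt with adjusted p of 0.0521 to 0.0781 (exact sign-flip test), and with any 1 library left out, when the smallest possible p is 0.0156, they kept their sign and did not pass. With mapping quality of at least 10 the difference of H3f3a was -9.53 nt ± 12.4 with an adjusted p of 0.281 (exact sign-flip test), and those of H3f3b could not be computed, since none of its reads reaches that quality. With barcode confidence of at least 0.9 the pair with the site at 45 nt gave no value and the other 3 differences passed, at -8.86 nt (1116 minus 349 nt) and -6.44 nt (551 minus 349 nt) in H3f3b, each with an adjusted p of 0.0273, and -10.3 nt in H3f3a with an adjusted p of 0.0365 (exact sign-flip test).

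MHY against DMSO asks whether raising mTOR activity moved the level or the tail of these mRNAs. None of the 7 read counts passed at 24 h or 48 h (limma, adjusted p at least 0.958 and 0.228), against 0.0486% and 1.72% of 4116 genes. Unadjusted p was under 0.05 for 0 genes at 24 h and for 1, H1f0, at 48 h, against 4.47% and 12.3%. The log2 fold changes at 24 h ran from -0.34 (H2afy) to 0.25 (H1f0), with a median of 0.00 beside -0.02 over all genes. At 48 h all 7 were below 0, from -0.67 (H1f0) to -0.08 (H3f3b), with a median of -0.24 beside -0.02 over all genes, of which 51.5% were below 0. With total reads as library sizes the median of all genes at 48 h moved to 0.10, the calls over all genes from 17 higher and 54 lower to 32 and 28, and the median of the 7 genes to -0.12, with 6 below 0 and H3f3b at 0.03. Both MHY libraries lay beyond both DMSO libraries in 2 of the 7 genes at 24 h and in 4 at 48 h, against 34.4% and 39.7% of all genes.

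For the abundant mRNAs the intervals were narrow. At 48 h the fold change of H2afz was 0.861 (95% interval 0.732 to 1.011), that of H3f3a 0.864 (0.727 to 1.03) and that of H3f3b 0.944 (0.789 to 1.13). At 24 h the 3 fold changes were 0.878 (0.744 to 1.04), 0.979 (0.817 to 1.17) and 1.02 (0.846 to 1.24). The sides of 1 on which H3f3b lay at 48 h and H3f3a at 24 h changed with total reads as library sizes, and the mean RPM of H3f3b at 48 h was 1420 in MHY and 1393 in DMSO. For H1f0 the fold change was 0.628 (0.434 to 0.906) at 48 h, with an adjusted p of 0.228 (limma). It rested on the DMSO libraries, which had 107.6 and 195.9 RPM. The log2 fold change of -0.67 became -1.05 (adjusted p = 0.0211) without DMSO library 24 and -0.16 (adjusted p = 0.949) without DMSO library 25. H1f0 was higher in MHY at 24 h and lower at 48 h in all libraries, and the difference between both effects was -0.93 on the log2 scale (SE 0.39, unadjusted p = 0.0180, adjusted p = 0.569, limma). For that difference 0 of 7 genes passed, against 0.340% of all genes, and 1 had an unadjusted p under 0.05, against 6.63%.

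The tests of median tail were likewise not passed by any of the 6 genes at either time (limma, adjusted p at least 0.996 at 24 h and 0.664 at 48 h), against 0% and 0.872% of 1949 genes. Unadjusted p was under 0.05 for 1 gene at 24 h (H1f0) and for 0 at 48 h, against 3.95% and 8.36%. H1f0 had -32.4 nt at 24 h (95% interval -59.5 to -5.35, adjusted p = 0.996) and -17.6 nt at 48 h (-42.8 to 7.67, adjusted p = 0.809). For H2afz the difference was 0.65 nt (-5.99 to 7.28) at 24 h and -1.61 nt (-7.84 to 4.63) at 48 h, and for H3f3a 0.85 nt (-6.85 to 8.55) and -6.46 nt (-13.4 to 0.521). At 48 h all 6 differences were below 0, with a median of -6.06 nt, where 61.8% of all genes were below 0 and their median was -3.02 nt. With each library centred on its own median, 4 of the 6 were below 0, with a median of -2.34 nt beside 0.50 nt over all genes. Both MHY libraries lay beyond both DMSO libraries in 2 of 6 genes at 24 h and 3 at 48 h, against 32.2% and 33.7% of all genes. The effects at 24 h and 48 h did not differ past the threshold in any of the 6 (limma), against 0% of all genes. An unadjusted p under 0.05 was found for 0 of them, against 4.41%.

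**Figure D4:**
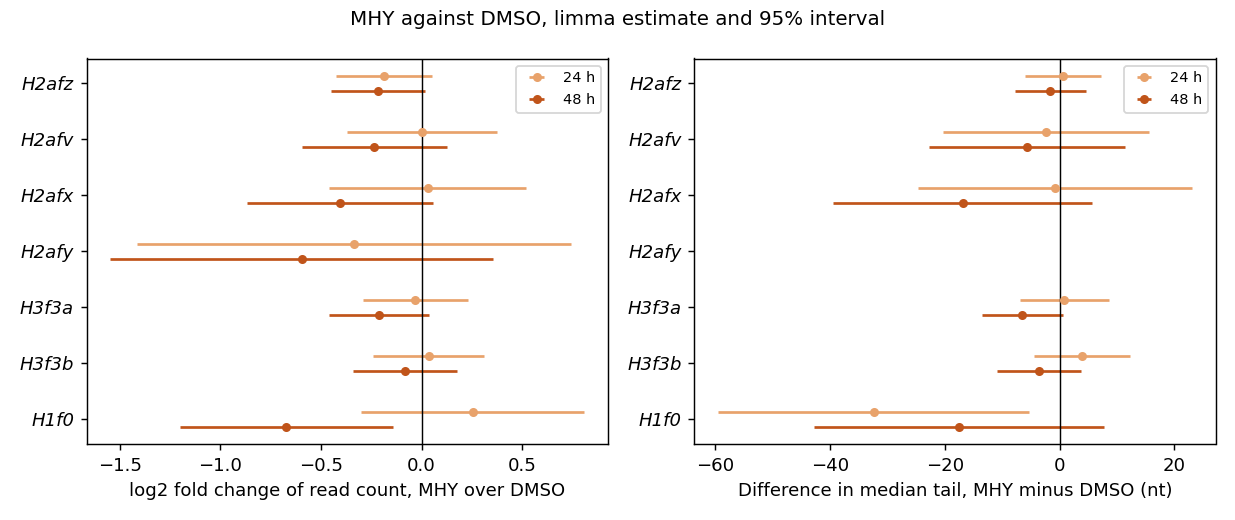
MHY against DMSO for each gene at 24 h and 48 h, as the log2 fold change of the read count (left) and the difference in median tail in nt (right, without H2afy). Dots are limma estimates and lines 95% intervals; the intervals of H2afz, H3f3a and H3f3b are the narrowest and all include 0.

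Tails shorter than 30 nt are given by library for H3f3b, whose effects at 24 h and 48 h had opposite signs. They made up 3.63% and 4.80% of its reads in DMSO and 2.13% and 1.82% in MHY at 24 h, and 2.09% and 3.06% in DMSO and 6.85% and 5.57% in MHY at 48 h. Both MHY libraries were thus below DMSO at 24 h and above it at 48 h. The same order held over all mRNA reads, with 2.34% and 2.72% in DMSO and 2.23% and 2.17% in MHY at 24 h, and 2.87% and 2.57% in DMSO and 4.46% and 3.38% in MHY at 48 h. The log2 odds differed by -1.06 (SE 0.30) at 24 h and 1.27 (SE 0.26) at 48 h, with adjusted p of 0.669 and 0.127 (limma). The median over all genes was -0.07 at 24 h and 0.41 at 48 h, so that it changed sign as well. H3f3b is shown because its effects differed in sign. The difference between them was 2.33 in log2 odds (SE 0.40) and did not pass (limma, adjusted p = 0.141). This contrast was not a planned one for short tails, and 0 of 1949 genes passed it. At 48 h the molecules ending at 551 and 1116 nt had 9 of 134 and 25 of 256 short tails in MHY, against 1 of 155 and 6 of 248 in DMSO. At the sites of 45 and 349 nt there were 4 of 55 and 10 of 277 in MHY, against 3 of 56 and 8 of 243 in DMSO. At 24 h the order was the opposite at 551 nt, with 3 of 107 in MHY and 8 of 106 in DMSO, and at 1116 nt, with 4 of 166 and 8 of 195. At 45 nt there were 2 of 46 in MHY and 1 of 48 in DMSO, and at 349 nt 2 of 192 and 3 of 219. These counts by site pool both libraries of a group and were not tested.

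In H2afz the share of tails under 30 nt was 2.70% and 3.31% in DMSO and 5.29% and 4.80% in MHY at 48 h, with a log2 odds difference of 0.75 (SE 0.27, adjusted p = 0.364, limma). At 24 h it was 3.38% and 1.96% in DMSO and 3.54% and 3.45% in MHY. Over the 6 genes, 0 passed at 24 h and 0 at 48 h (limma), against 0% and 0.359% of 1949 genes, and 1 and 3 had an unadjusted p under 0.05, against 5.64% and 10.6%. Both MHY libraries lay beyond both DMSO libraries in 4 genes at 24 h and 3 at 48 h, against 22.0% and 33.1% of all genes. The 3 genes of 48 h (H2afz, H3f3b and H1f0) were all higher in MHY, as were all mRNA reads together. Tails of 30 to 90 nt passed in 0 of 6 genes at both times (limma), against 0% and 0.257% of all genes. At either time 0 had an unadjusted p under 0.05, against 4.87% and 6.16%.

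**Figure D5:**
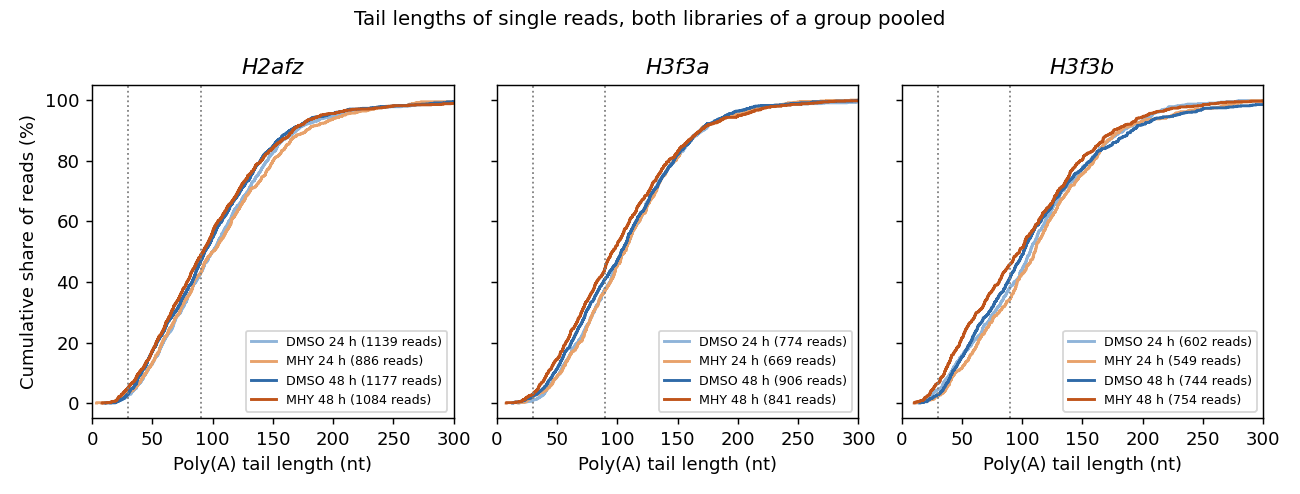
Cumulative share of reads (%) against tail length (nt) for H2afz, H3f3a and H3f3b, with both libraries of a group pooled and dotted lines at 30 and 90 nt. The curves of a gene stay close together, and at 30 nt that of MHY at 48 h is the highest in each gene.

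Between 24 h and 48 h, taken over both treatments, tails were shorter by -7.99 nt in H2afz (SE 2.25, 95% interval -12.6 to -3.44) and by -9.83 nt in H3f3b (SE 2.74, -15.4 to -4.28). Each had an adjusted p of 0.0536 (limma) and so fell just short of the threshold. H3f3a had -5.38 nt (SE 2.57, adjusted p = 0.417), and the other 3 genes had adjusted p of 0.699 or more. None of the 6 passed, against 1.28% of all genes, and 3 had an unadjusted p under 0.05, against 11.4%. The median over all genes was -4.57 nt, and with each library centred on its own median the differences were -3.38 nt for H2afz and -5.08 nt for H3f3b, with 0 of 1949 genes past the threshold. In read counts 0 of 7 genes passed, against 0.875% of all genes, and 1 had an unadjusted p under 0.05 (H2afz, log2 fold change -0.17, SE 0.09, limma adjusted p = 0.526), against 9.06%. Time and sequencing run cannot be told apart in any of these.

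Other histone genes gave few reads. Of 17 further variants looked for, 4 had reads, namely Cenpa (446), H1f10 (287), H2aj (155) and Macroh2a2 (56), which encode the centromeric H3, a linker histone, an H2A variant and macroH2A2. None of these 4 passed in read count in MHY at either time (limma, 0 and 2 unadjusted p under 0.05, where 4.47% and 12.3% of all genes had one). The clustered histone genes, whose mRNAs mostly lack tails, had reads for 45 genes but only 375 reads in all, 168.9 to 219.5 RPM, against 5703 to 6145 for the 7 variant genes. In this list 3 genes reached 30 reads and 1 was tested, without passing.

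Among the factors that deposit or remodel histones, 28 of 40 could be tested for read count. At 48 h 1 fell, Npm1, which encodes the abundant histone chaperone nucleophosmin, with 5775 and 6214 RPM in DMSO and 4904 and 5320 in MHY (log2 fold change -0.36, SE 0.09, adjusted p = 0.0123, limma), where 1.72% of all genes passed. At 24 h 0 passed, against 0.0486% (limma), and 4 had an unadjusted p under 0.05, against 4.47%. Of the factors that process histone mRNAs, such as Slbp, which binds the stem-loop, 0 of 9 passed at 24 h or 48 h (limma), against 0.0486% and 1.72% of all genes, and 0 and 1 had an unadjusted p under 0.05, against 4.47% and 12.3%. For median tail 0 of 20 and 0 of 4 genes of these lists passed in MHY against DMSO at either time (limma), against 0% and 0.872% of all genes. An unadjusted p under 0.05 was found for 1 and 0 of them at 24 h and 2 and 0 at 48 h, against 3.95% and 8.36%.

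The genes with the tails most like those of H2afz were sought among 430 others with at least 50 reads in every library, by the root mean square difference of the median tail over the 8 libraries. They were Rpl29 (2.81 nt), Elob (2.92 nt) and Cfl1 (2.98 nt), where the median gene was 9.11 nt away. For H3f3a they were Gpx4 (3.37 nt), Atp5j (3.94 nt) and H3f3b (3.97 nt), where the median gene was 10.7 nt away. The likeness is that of library medians, which move together with the library as a whole.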

How the data were processed

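Direct RNA reads of 8 libraries were used. The study's methods name Guppy for basecalling, minimap2 2.20 for alignment to mm10 with GENCODE vM17 genes, Nanopolish for tails and Deeplexicon for barcodes. Tail length was deposited by the authors in nt and was not normalized. Barcode confidence is a fraction and mapping quality a score, both as deposited. Read counts were made here by counting lines. The table held 2439710 alignments, of which 2027638 (83.1%) were PASS, and 66955 mitochondrial and 12169 pseudogene alignments were set aside. Groups came from the table's condition column and the series labels; conditions that name no hour were taken as 24 h, and which replicate of its group a library is remains unknown.

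Counts of 4116 genes (at least 10 reads in at least 2 libraries) were fitted with limma 3.58.1 voom in R 4.3.3, scaled by median-of-ratios size factors. Median tails and the log2 odds of tail classes (0.5 read added) of 1949 genes with at least 10 reads in every library were fitted with limma, weighted by reads. All 8 libraries entered each fit, and p was adjusted by Benjamini-Hochberg over all genes of a contrast, with a threshold of 0.05. Fits were tested on simulated data. The smallest p of a sign-flip test over 8 libraries is 0.00781. Named genes were the 7 members, up to 3 genes past the threshold from each other list, and the 3 most alike in tail to the 2 members with most reads. Stmn2, Gata4, Gata6, Slbp and the 4 further variants are outside this rule and were chosen after their values were seen. The members and lists were chosen with earlier results of these data known. H3f3b reads had mapping quality 0 on both main transcripts; the reason was not tested. The study calls the replicates biological. The sequence at 1 poly(A) site of H2afz is not reported here.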

Additional observations from a re-analysis of the deposited data

How the results depend on the processing

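In MHY against DMSO, no member passed under any alternative, except H1f0 in read count at 48 h without DMSO library 24, so that leaving out 1 library gave 0 to 1 members there. For median tail at 48 h against 24 h, leaving out 1 library gave 0 to 2 members (H2afz and H3f3b without DMSO 48 h library 25, H2afz without MHY 48 h library 25). With at least 30 reads in every library 2 members passed (H2afz and H3f3b), with mapping quality of at least 10 1 member (H2afz; H3f3b could not be fitted) and with barcode confidence of at least 0.9 1 member (H2afz). With replicate numbers as a block 1 member passed there (H2afz, -9.68 nt, adjusted p = 0.0483, limma), among 73 genes in place of 25, and the block changed no other member's call. The numbers are not stated to pair cultures. Deviations of same-numbered libraries were correlated by -0.0128 to 0.0889 over 759 genes. A correlation over genes cannot see a shift shared by a whole library. The median tail of all mRNA reads was higher in library 23 than in 21 and in 25 than in 24, in both treatments. Whether same-numbered libraries share more than a number was not tested further. Of 1216 member effects recomputed, 1123 kept direction and side of the threshold, 84 that were called in neither changed sign, 9 newly passed and 0 reversed. In single runs, 46 of 64 values had the direction of all runs. The cause of these changes was not tested.

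Over the alternatives, the number of all genes called ranged from 0 to 4 (2 as reported) and 17 to 147 (71) for read count at 24 h and 48 h, 0 to 30 (14) for their difference and 9 to 66 (36) for time. With total reads as library sizes the calls went from 2 higher and 12 lower to 3 and 8 for that difference and from 7 and 29 to 9 and 16 for time. For median tail the number ranged from 0 to 41 (17) at 48 h and 0 to 74 (25) for time. For tails under 30 nt it was 0 to 1 (0) at 24 h and 0 to 16 (7) at 48 h, and for 30 to 90 nt 0 to 4 (0) and 0 to 36 (5). Depth limits the rare members most, since H2afy had 6 to 14 reads per library.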
